A study of Rattus norvegicus with 12 samples.

Results

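The 176 probes described here are short DNA oligos whose signal differed widely between brains of rats labelled normal. Each is a 60-base array probe with a name beginning rclstr that was well above background on at least 2 of 4 control arrays and had a standard deviation (SD) of at least 1.5 over the 4 control log2 values of the deposited table. They are 176 of the 43905 rclstr probes that met the detection condition (0.401%), of 57102 rclstr probes and of 60148 distinct probes on the array. Of 2938 probes named after the CIRCpedia collection of circular RNAs that met the same detection condition, 1 had such a spread. Another 22 rclstr probes had an SD of at least 1.5 but were well above background on no or 1 control array, and they are not members. A log2 value is a level here, and a difference of 1 in it is a 2-fold difference in signal. The members were chosen by the control values, so everything said of their spread in control is a description with no test.

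The series compared rat brain in 3 groups of 4 arrays: control samples labelled normal brain, a model of cerebral ischaemia made by embolization of the middle cerebral artery and sampled at 7 days, and the same model at 7 days after an intervention with Buyang Huanwu Decoction (BHD), a herbal medicine. Some labels are at odds: descriptions of the model and BHD samples name the hippocampus where the tissue is given as brain, and the series design extends the ischaemia to every group. The strain field reads male, so neither strain nor age is known. The labels call most samples biological replicates but tie none to an animal, and p-values therefore measure the spread between these samples. No file pairs a probe with a gene, so the RNAs are given by probe ID and sequence, the labelled tissue could not be checked against marker genes, and no list of cell type markers could be run. All control arrays lay in row 1 and all model arrays in row 2 of slide 1, and all BHD arrays lay in row 1 of slide 2, so group and place on the slides cannot be told apart.

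An array probe reports how much labelled RNA binds to it. Reverse transcription here began from an oligo-dT primer, which starts from runs of A in an RNA, so linear RNAs with a poly-A tail are read as well as any circular RNA with an A-rich stretch. Brains of animals kept alike can differ in an RNA step by step, as when the abundance of a transcript or of a cell type varies, or between 2 separate levels, as when an allele or a gene copy is present in some animals and absent in others. In bulk tissue, fewer cells of a type and less RNA per cell cannot be told apart.

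The first sequences are of 3 members of the main graded order that are among the 6 with the largest control SD; rclstr_29246_1333_6 and rclstr_51949_483_15 were also called lower in BHD than in control. They are printed 5′ to 3′ in lower case, as the array files give them.
rclstr_29246_1333_6: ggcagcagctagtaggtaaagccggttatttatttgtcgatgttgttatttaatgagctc
rclstr_51949_483_15: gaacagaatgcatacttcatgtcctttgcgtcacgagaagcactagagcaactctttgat
rclstr_13876_2012_12: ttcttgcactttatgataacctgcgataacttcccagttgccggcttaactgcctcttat

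The next set holds members that took 2 separate levels, the last 2 of them high on control replicate 4 alone.
rclstr_28228_1342_10: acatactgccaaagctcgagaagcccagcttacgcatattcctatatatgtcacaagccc
rclstr_59617_340_14: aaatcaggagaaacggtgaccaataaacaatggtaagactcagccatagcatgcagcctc
rclstr_29457_1620_13: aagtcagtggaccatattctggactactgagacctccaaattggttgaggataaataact
rclstr_15040_2674_11: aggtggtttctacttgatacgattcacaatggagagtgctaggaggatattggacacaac
rclstr_58426_299_7: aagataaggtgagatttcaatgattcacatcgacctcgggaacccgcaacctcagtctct
rclstr_53362_373_4: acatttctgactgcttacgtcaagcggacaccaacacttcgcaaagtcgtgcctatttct

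The following members shared a dimmer graded profile that ran through all 3 groups. For rclstr_50241_290_40 the capitals mark 35 bases found in the RefSeq window around the start of LOC134486258 in GRCr8.
rclstr_63573_221_50: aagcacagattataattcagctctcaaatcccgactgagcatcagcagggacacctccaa
rclstr_46338_327_26: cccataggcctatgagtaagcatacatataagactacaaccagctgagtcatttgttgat
rclstr_50241_290_40: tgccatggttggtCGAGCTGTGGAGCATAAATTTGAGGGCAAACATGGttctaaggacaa

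Pairs of probes that share bases show whether a spread is repeated by a second spot, and capitals mark the bases that each pair shares. The first 2 pairs are members only, and rclstr_53205_193_18 is not a member.
rclstr_27795_387_10: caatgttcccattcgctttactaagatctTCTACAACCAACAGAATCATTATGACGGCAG
rclstr_33228_491_13: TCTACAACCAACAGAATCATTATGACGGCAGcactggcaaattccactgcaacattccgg
rclstr_5838_2326_19: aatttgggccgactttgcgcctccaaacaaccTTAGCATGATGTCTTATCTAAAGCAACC
rclstr_7404_1849_20: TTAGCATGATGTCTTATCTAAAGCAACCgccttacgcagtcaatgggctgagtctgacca
rclstr_60523_59_1016: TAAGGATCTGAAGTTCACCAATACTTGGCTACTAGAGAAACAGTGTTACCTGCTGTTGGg
rclstr_53205_193_18: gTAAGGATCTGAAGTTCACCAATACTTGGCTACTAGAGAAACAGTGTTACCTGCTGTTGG

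The members' control SD ran from 1.50009 to 3.97 with a median of 1.84, against a median of 0.152 over all detected rclstr probes. Of the 176, 74 were well above background on all 4 control arrays, 55 on 3 and 47 on 2, so part of the spread lies between a measured level and the floor of the deposited values, which is near 0.7 to 0.9. On all 12 arrays 60 members were well above background, and 26 were above it on no model and no BHD array. Just inside the threshold lay rclstr_21063_683_12 (SD 1.50009) and rclstr_66914_124_34 (SD 1.50165), and just outside it rclstr_19470_1643_8 (SD 1.49885) and rclstr_1044_3900_4 (SD 1.48894). With normexp background correction, which adds an offset of 50 to every signal, 31 rclstr probes met the rule, and leaving out 1 control array at a time gave 133 to 215.

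Most members followed 1 graded order of the control brains. Control replicate 2 was highest, then replicate 1, replicate 3 and replicate 4 in 97 of 176 members (55.1%), beside 4.67% of all detected rclstr probes. The members met 19 of the 24 possible orders. The share with this order was 7.68% among detected rclstr probes with a control SD of at least 0.3, 28.2% at an SD of at least 1 and 69.6% at an SD of at least 2. Leaving out control replicate 1, 2, 3 or 4, the remaining arrays had that order in 113, 126, 108 and 110 members. The same orders were met by 14.99%, 17.33%, 14.85% and 16.53% of all detected rclstr probes. The 97 members keep the order of their remaining arrays by construction. These counts therefore cannot fall below 97, and they do not test the order.

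The 3 steps between the control brains differed in size and in how far they varied from probe to probe over these 97 graded members. Replicate 2 exceeded replicate 1 by a median log2 difference of 0.98 (quartiles 0.81 and 1.14). Replicate 1 exceeded replicate 3 by 2.11 (quartiles 1.76 and 2.51), and replicate 3 exceeded replicate 4 by 1.27 (quartiles 0.72 and 2.23). The whole climb from replicate 4 to replicate 2 had a median of 4.25, a 19.1-fold difference in signal. In the 40 of them that were well above background on all 12 arrays the steps were 0.91, 2.09 and 1.13, all between values above background.

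The graded members with the largest control SDs held the order at high and at low signal. Their steps between replicates 3 and 4 exceeded the upper quartile of the 97, so they are not typical of the set. The widest was rclstr_29246_1333_6, with log2 levels of 12.12, 13.04, 9.21 and 4.99 in control replicates 1 to 4, 6.79, 2.30, 4.98 and 3.45 in the model and 3.88, 0.77, 3.00 and 3.16 in BHD. Control replicates 1, 2 and 3 stood above all 8 model and BHD arrays, and replicate 4 lay within the range of the model arrays. In rclstr_51949_483_15 the control levels were 10.58, 11.34, 7.87 and 4.27, the model levels 5.20, 4.21, 4.17 and 2.83, and the BHD levels 3.96, 1.36, 3.32 and 3.86. In rclstr_13876_2012_12 they were 7.49, 8.52, 5.13 and 1.15 in control, 2.24, 1.59, 0.90 and 1.03 in the model and 1.96, 1.497, 0.88 and 0.83 in BHD. That probe was well above background on control replicates 1, 2 and 3, and its other 9 arrays ran from 0.83 to 2.24. The same control order was met by rclstr_5469_1356_16, which scattered more among the ischaemic arrays than rclstr_13876_2012_12. Its levels were 6.98, 8.46, 5.46 and 0.79 in control, 2.27, 3.23, 2.84 and 5.65 in the model and 5.25, 3.61, 4.57 and 3.37 in BHD.

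The high control levels of the graded members were seldom reached in model or BHD. Control replicate 2 was above all 8 model and BHD arrays in 95 of the 97, and replicates 1 and 2 both were in 88 of the 97. Over all 176 members both were above the 8 in 97 (55.1%), beside 5.79% of detected rclstr probes; this count uses the control values that chose the members, and nothing is read from it. Control replicate 3 was above all 8 in 48 of the 97. Control replicate 4 lay within the range of the 8 in 65, below it in 27 and above it in 5. Against the median of the 8 arrays, replicate 2 differed by a median of 4.02, replicate 1 by 2.98, replicate 3 by 0.80 and replicate 4 by -0.32. The choice of members by control spread and of this set by control order enters these differences, which are given as values only.

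The array medians over the 97 graded members were 6.85, 7.997, 4.84 and 3.44 in control replicates 1 to 4, 3.80, 3.61, 4.17 and 3.95 in the model, and 4.30, 3.14, 4.27 and 4.11 in BHD. BHD replicate 2 was the lowest of the 4 BHD arrays in 63 of the 97 (64.9%), beside 31.1% of detected rclstr probes. The share of probes well above background was 76.9%, 77.0%, 77.0% and 76.0% on control replicates 1 to 4 and 73.2% to 77.3% over the 12 arrays. The log2 difference between the 3′ and 5′ Gapdh control probes of the array, which tends to grow as RNA breaks down, was 2.98, 3.03, 3.07 and 3.01 in control, 2.90 to 2.94 in the model and 2.80 to 3.00 in BHD, and the part of RNA quality in the climb was not tested.

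The spread of the graded members in control did not carry over as a whole into the ischaemic groups. Their median SD was 2.00 in control, 0.58 in the model and 0.62 in BHD, with 0.171 and 0.181 for all detected rclstr probes in the model and BHD. Members were chosen for a wide control spread, so a smaller SD in the other groups can follow from the choice alone. An SD of at least 1.5 was met by 3 of the 97 in the model and 4 in BHD. Over the 8 model and BHD arrays, as deviations from each group's mean, pairs of graded members had a median correlation of 0.19 (quartiles -0.17 and 0.50), and 0.07 without BHD replicate 2. These correlations over 8 arrays are descriptions; the probes share the arrays, the labelling and the scaling.

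A smaller set shared another graded profile that did run through every group. In 27 members control replicate 1 was highest and replicate 4 lowest (14 in the order 1, 3, 2, 4 and 13 in the order 1, 2, 3, 4), a set chosen after its values were seen. Of these, 16 (59.3%) correlated at 0.8 or above over the 8 model and BHD arrays with the median profile of the other members of the set, beside 1.43% of the other detected rclstr probes. The whole set gave a median pairwise correlation of 0.45 over the 8 arrays (quartiles -0.08 and 0.81), and 0.42 to 0.51 when 1 of the 8 was left out. With normexp background correction the median fell to 0.28 (quartiles -0.20 and 0.83). The other 52 members, with yet other orders, gave a median of 0.04, and of -0.0088 with normexp.

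These 16, picked for following that profile, lay at low signal. Over the other 11 members of the set the correlation with it ran from -0.70 to 0.79. The array medians of the 16 were 5.52, 3.72, 3.63 and 0.79 in control replicates 1 to 4, 3.51, 4.87, 4.84 and 2.47 in the model, and 4.63, 4.71, 2.92 and 4.63 in BHD. Control replicate 4, model replicate 4 and BHD replicate 3 were the low arrays of their groups, with 1, 5 and 4 of the 16 well above background. In the whole set of 27, BHD replicate 3 was the lowest BHD array in 19 (70.4%, beside 18.2% of detected rclstr probes). Model replicates 2 and 3 were both above replicates 1 and 4 in 18 (66.7%, beside 19.6%). Only 1 of the 16 was well above background on all 4 control arrays, and their highest level on any array was 6.89, so their profile is measured close to the floor.

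The 3 members given next spanned 4.29 to 4.87 log2 units in control, 1.87 to 2.999 in the model and 1.87 to 2.15 in BHD. The probe rclstr_63573_221_50 had levels of 6.003, 3.85, 4.88 and 1.72 in control, 4.43, 5.73, 5.32 and 2.73 in the model and 5.35, 5.46, 3.68 and 5.55 in BHD. The probe rclstr_50241_290_40 had 5.66, 3.58, 4.71 and 0.78, then 3.97, 5.24, 5.15 and 3.37, then 5.09, 5.54, 3.45 and 5.60 in the same groups. In rclstr_46338_327_26 they were 5.29, 4.04, 3.64 and 0.72 in control, 3.32, 5.16, 4.99 and 2.75 in the model and 3.94, 5.20, 3.37 and 5.36 in BHD. All 3 were lowest on control replicate 4, on model replicate 4 and on BHD replicate 3, so the groups overlapped almost wholly. These 3 were chosen after their values were seen. The probe rclstr_63573_221_50 shares 23 to 41 bases with 5 rclstr probes outside the members, of which 4 correlated with it at 0.85 to 0.95 over 12 arrays, and 4 of the 16 members share a run of 20 bases or more with another probe.

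On-or-off variation was counted first within control, where 2 levels means that the largest gap between neighbouring values took at least 70% of the range. It held for 57 of 176 members (32.4%), beside 23.3% of all detected rclstr probes, so by this count members were not far from the background. It held for 8 of the 97 members of the main graded order and 49 of the other 79. The high arrays were replicates 1 and 2 in 11 members, 1, 2 and 3 in 9, 2, 3 and 4 in 9, 1 and 4 in 6, and replicate 4 alone in 6. Over all 12 arrays, 2 levels means a largest gap of at least 40% of the range and 1.5 log2 units with at least 2 arrays on each side. That held for 55 of 176 members (31.3%), beside 0.264% of detected rclstr probes; a wide range, which the rule chose, is needed to meet it. These 2 levels held for 29 of the 97 members of the main graded order and 26 of the other 79. Members graded within control can thus split into 2 levels over 12 arrays. In 27 of the 55 the high level was control replicates 1 and 2 alone, and the other 28 had other splits.

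Among those 28, 16 had both levels within the model and 19 within BHD, 11 had both levels in both ischaemic groups, and 10 were well above background on all 12 arrays, so that the low level was itself measured. The clearest measured case was rclstr_29457_1620_13, with 8.27, 8.32, 3.18 and 3.52 in control, 8.48, 4.03, 8.48 and 3.55 in the model and 4.70, 4.30, 3.97 and 8.39 in BHD. Its 5 high arrays lay between 8.27 and 8.48 and its 7 low arrays between 3.18 and 4.70, with 2 high arrays in control, 2 in the model and 1 in BHD. The probe rclstr_15040_2674_11 had 10.48, 10.28, 4.93 and 4.94 in control, 10.32, 10.34, 10.35 and 10.90 in the model and 5.84, 8.93, 5.11 and 5.96 in BHD. Every model array was at the high level, and BHD replicate 2 was the high array of its group.

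In some members the low level was not well above background. The widest control SD, 3.97, was that of rclstr_28228_1342_10, with 9.46, 10.53, 1.70 and 8.32 in control, 10.02, 1.72, 9.28 and 12.27 in the model and 10.18, 8.59, 10.74 and 9.52 in BHD. It was at the low level on 2 of 12 arrays, control replicate 3 and model replicate 2, and high elsewhere. Its nearest match over 12 arrays among 48627 probes was rclstr_49180_221_15 (r = 0.91), followed by rclstr_6645_2199_6 (r = 0.90) and rclstr_51607_227_18 (r = 0.90), none of which is a member. These are the highest of 48627 correlations, so nothing is read from their size. The first was well above background on 0 control, 1 model and 1 BHD arrays, at levels of 0.77 to 3.57. For rclstr_51607_227_18 these counts were 1, 1 and 0, and for rclstr_6645_2199_6 they were 3, 3 and 4. The probe rclstr_59617_340_14 had 6.80, 0.73, 6.69 and 0.75 in control, 0.72 to 0.77 in the model and 0.78, 7.28, 0.78 and 0.84 in BHD. It was present on 3 of 12 arrays, control replicates 1 and 3 and BHD replicate 2, and without BHD replicate 2 its BHD levels ran from 0.78 to 0.84.

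Some members mixed detected and undetected arrays in every group, which held for 40 of the 176 (22.7%), beside 3.15% of detected rclstr probes; members were chosen with detection on as few as 2 control arrays. In rclstr_60523_59_1016 the levels were 4.52, 4.01, 0.79 and 3.70 in control, 3.84, 0.77, 0.83 and 1.96 in the model and 6.10, 1.81, 6.20 and 0.79 in BHD. In rclstr_47198_69_16 they were 4.52, 5.12, 0.75 and 4.71, then 5.18, 0.72, 1.22 and 0.72, then 4.29, 0.82, 5.20 and 1.21. Both were at the floor on control replicate 3 and high on BHD replicates 1 and 3. In rclstr_5191_2224_14 the levels were 5.46, 6.96, 3.87 and 1.28 in control, 0.80, 0.83, 2.17 and 4.40 in the model and 3.57, 0.83, 3.28 and 2.27 in BHD, which is graded rather than on or off.

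In most members whose only high control array was replicate 4, that array was also the highest of all 12. There were 7 whose largest control gap set replicate 4 above the rest, 6 of them with 2 levels, and in 6 of the 7 replicate 4 was the highest of all 12 arrays. In rclstr_58426_299_7 replicate 4 stood at 10.10, and the other 11 arrays had a median of 4.36 and a maximum of 5.24. In rclstr_53362_373_4 it stood at 10.62, with a median of 5.27 and a maximum of 6.31 elsewhere. The exception, named after its values were seen, was rclstr_40234_614_16, at 7.96 on control replicate 4 and 8.10 on its highest other array.

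Further 2-level members were low on 1 control array or high on 2. In rclstr_15664_2222_10 the control levels were 0.79, 4.90, 5.05 and 5.61, against 4.06 to 5.83 in the model and 4.44 to 4.82 in BHD, so control replicate 1 was the only low array of 12. In rclstr_58750_243_12 they were 3.04, 7.15, 6.87 and 7.16 in control, 6.16, 4.20, 7.20 and 3.68 in the model and 5.25, 4.95, 7.39 and 6.14 in BHD. In rclstr_44643_583_24 they were 8.56, 8.79, 8.60 and 5.40 in control, 9.07, 5.07, 7.80 and 8.81 in the model and 5.49, 7.98, 5.38 and 8.60 in BHD. Outside control rclstr_58750_243_12 was graded, while rclstr_44643_583_24 had low and high arrays in each group. In rclstr_40372_368_55 control replicates 1 and 4 stood at 11.67 and 12.09 and replicates 2 and 3 at 7.94 and 8.03, while the model ran from 11.64 to 12.06 and BHD from 9.87 to 12.63. In rclstr_30487_1452_8 the same control replicates were high at 6.18 and 6.54 against 2.60 and 3.03, and the model and BHD arrays ran from 3.12 to 6.01 without a clear gap.

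Spread as wide as the rule asks persisted in few members, though in a larger share than of all detected rclstr probes. An SD of at least 1.5 was met in the model by 17 members (9.66%), beside 0.182% of detected rclstr probes, and in BHD by 23 (13.1%), beside 0.175%. It was met in both by 7 members (3.98%), beside 0.0524%. Among detected rclstr probes with a mean control level under 5, which are noisier, the shares were 0.401% in the model and 0.497% in BHD, and the 96 members below that level gave 6.25% and 13.5%. Without BHD replicate 2 the BHD count was 18, and over single arrays left out it ran from 18 to 28. The median SD over all members was 0.76 in the model and 0.75 in BHD. The spread was larger than in control in 9 members in the model and 12 in BHD. The choice of members by control SD makes a larger spread elsewhere rare, and nothing is read from these counts. Outside the main graded order, 14 of 79 met the SD in the model and 19 of 79 in BHD, and the difference from the 3 and 4 of 97 graded members was not tested.

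Probes that share bases with a member gave a second reading of its spread. Of the 176, 12 share at least 20 bases in a row with another probe and 164 share none. In the pair rclstr_27795_387_10 and rclstr_33228_491_13, which overlap by 31 bases, the control levels were 6.13, 7.14, 3.72 and 0.79 in the first and 6.71, 7.76, 4.55 and 0.76 in the second, and neither was well above background on any model or BHD array. In the pair rclstr_5838_2326_19 and rclstr_7404_1849_20, overlapping by 28 bases, they were 5.91, 6.40, 4.22 and 0.87 and 5.33, 6.48, 2.44 and 0.78. Both pairs had the main order, replicate 2 first and replicate 4 last, on separate spots. All 4 probes were chosen by their control values, so the shared order is a description. Over the 8 model and BHD arrays the pairs correlated at 0.04 and 0.70. These 4 were the only members of the main order that share 20 bases with another probe. The probe rclstr_60523_59_1016 shares 59 bases with rclstr_53205_193_18, and their levels correlated at 0.96 over 12 arrays. Of 12 partners outside the members on the same strand, 9 correlated with their member at 0.8 or above over 12 arrays. Over all 12 partners the control SD ran from 0.03 to 1.47. The lowest was that of rclstr_50239_476_16 (r = 0.19), which was well above background on no array.

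Their GC content ran from 40% to 46.7%, as for all detected rclstr probes. All 176 are single spots, none of their 2112 spot values was flagged non-uniform or as an outlier, and no spot of any probe was saturated. The 4 equal blocks of the array, split at its middle row and column, held 46, 34, 46 and 50 members (26.1%, 19.3%, 26.1% and 28.4%), beside 24.6%, 24.8%, 25.2% and 25.4% of detected rclstr spots, and 12 pairs of members lay within 2 rows and 2 columns of each other. The part of position in the spread was not tested. The median variation between pixels of a spot was 30.2% for members and 19.3% for detected rclstr probes. A run of 25 bases or more in the RefSeq windows around gene starts (GRCr8) was found for 6 members (3.41%) and for 1560 of all probes (2.59%). A whole-length match, looked at after its values were seen, placed rclstr_24462_123_14 in the window of RT1-N2, a major histocompatibility class I gene, at chr20:2646080-2646379 on the plus strand. Its levels were 5.02, 2.39, 4.77 and 1.76 in control, 2.99, 2.87, 3.99 and 1.39 in the model and 2.42, 5.73, 1.97 and 2.99 in BHD. Control replicates 1 and 3 and BHD replicate 2 were the highest. The other whole-length match was that of rclstr_13734_2351_8, on the strand opposite to LOC120095193 in the window at chr10:91421224-91421523, with 7.38, 8.59, 5.59 and 5.27 in control, 4.99 to 5.78 in the model and 4.98 to 5.66 in BHD. The sequence of rclstr_24462_123_14 follows, with the matched bases in capitals.
rclstr_24462_123_14: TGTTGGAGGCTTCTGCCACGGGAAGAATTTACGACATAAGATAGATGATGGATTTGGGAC

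The group comparisons ask whether members changed with ischaemia or with BHD, and the wide control spread enters their error. They used limma across the 44719 probes that were well above background on all arrays of 1 group or more, with Benjamini-Hochberg adjustment and calls at an adjusted p under 0.05. Of the members, 99 passed that filter and 77 did not, and a member high in control had to pass through control, so the counts are descriptions. Between model and control 0 of the 99 were called, beside 0.047% of all probes tested; 36 had an unadjusted p under 0.05, beside 17.6%. The members' median log2 change was -1.24 there, against 0.0025 for all probes tested. Between BHD and model limma called 0 of the 99, beside 3.19%, with 2 at an unadjusted p under 0.05, beside 17.1%, and a median change of -0.0074. A fit on only the BHD and model arrays called 2 of 88 members tested, beside 965 of 43743 probes, a like share. No other tool was run.

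Between BHD and control 19 of the 99 were called (19.2%), beside 10.7% of all probes tested. An unadjusted p under 0.05 was met by 34, beside 28%. Of the 19 called, 18 were lower in BHD, all of the main graded order, beside 6.89% of probes lower, and 1 was higher, beside 3.85%. In 13 of the 19 (68.4%) the control and BHD arrays did not overlap, beside 86.9% of all probes called in that comparison, and 2 of the 18 had no BHD array well above background. The count of called members moved when single arrays were left out, and so did the count of all probes called. Without control replicate 4, the lowest array of the graded order, 47 of 127 tested members were called between BHD and control, beside 4.06% of probes lower. Between model and control 7 were called, beside 0.0266% of probes lower, and all of these members were lower. The members and the order were chosen by control values, so leaving out the low array raises the control mean and narrows the control spread of graded members. More members also passed the filter (127, against 99), and nothing is read from the rise. With 1 other array left out the BHD and control count fell as low as 6 (without BHD replicate 1 or BHD replicate 3), and it was 7 without control replicate 1 or control replicate 2, 10 without BHD replicate 4, 11 without BHD replicate 2, and 12 without control replicate 3 or model replicate 2. With only probes well above background on all 12 arrays it was 10 of 60 (16.7%), beside 11.2% of probes. With only BHD and control in the fit it was 5 of 95, beside 4040 of 44382 probes.

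The largest fitted fall among called members was that of rclstr_29246_1333_6, given array by array above. Its log2 change from control to BHD was -7.30 (SE 1.58, n = 4 arrays a group, limma adjusted p = 0.0169), and all 4 BHD arrays were below all 4 control arrays, 1 of them well above background, so the size of the fall rests mostly on BHD values not measured above background. It was called under all 22 alternatives, with adjusted p from 0.0064 to 0.043. Its change from control to model was -5.47 (SE 1.58, limma adjusted p = 0.145). The next was rclstr_60015_30_10, with 10.47, 10.50, 9.71 and 3.91 in control, 3.10, 0.76, 6.04 and 2.08 in the model and 5.45, 0.81, 4.99 and 0.87 in BHD. Its change from control to BHD was -5.69 (SE 1.66, limma adjusted p = 0.0498), but control replicate 4 lay inside the BHD range and only 4 of 22 alternatives called it, with adjusted p from 0.018 to 0.117. Both probes were chosen by their control spread and passed the filter only through control. The alternatives reuse those control values, so the p-values and their ranges are descriptions.

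The only called rise was that of rclstr_18212_2616_10. Its levels were 5.93, 3.96, 1.77 and 4.37 in control, 5.78, 5.05, 6.13 and 6.32 in the model and 7.42, 5.15, 7.56 and 6.60 in BHD. The groups overlapped at BHD replicate 2, which lay below control replicate 1. The log2 change from control to BHD was 2.61 (SE 0.76, limma adjusted p = 0.0498), and 5 of 22 alternatives called it, with adjusted p from 0.016 to 0.126. Without control replicate 3, its low array, the change was 1.88 and was not called. This member was also chosen by its control spread, so its p-values are descriptions too.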

How the data were processed

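Total RNA of 12 rat brain samples was isolated by Trizol, reverse transcribed from a T16N2 primer and marked with Cy3 (per the labels' protocols) for 1-colour Agilent arrays. The submitters' processing notes name Agilent Feature Extraction 10.7.1.1. Deposited scanner files hold processed intensity of each spot, linear and background-subtracted per the file headers, mean spot and local background intensity, and a 0 or 1 score per spot for signal well above background, for outliers and for saturation, set per the file headers. The deposited value table holds log2 values made by the authors; every column had a median of 6.134 and correlated with its scanner values at 0.9995 or above, so the direction is the same and genes were not centred, while the normalization is not given in the sources used here. Fits on it called nearly as many probes as fits on quantile-normalized signals (51 and 51, 1198 and 1201, 4706 and 4718), so the table may already be quantile normalized, which would set equal array medians. Array data have no read depth, and the number of arrays limits the precision.

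The members and lists were chosen with earlier results of these data known. Levels and SDs came from the deposited log2 table. Tests used limma 3.58.1 in R 4.3.3 on log2 processed signal minus each array's 75th percentile, a single mean per group over all 12 arrays; differences are in log2 units. The fit was tested on simulated data. Sequence was compared in runs of 20 bases with other probes and of 25 with RefSeq windows (GRCr8). Named members were the largest called changes (at most 2 each way), the 6 largest control SDs, the 2 widest gaps in each of the commonest control patterns (5, since the fourth was tied), the 2 members nearest the threshold on each side, members sharing sequence, the largest SDs in model and in BHD, the nearest matches of the widest member and 3 members with mixed detection; others are said to be chosen after their values were seen. Alternatives were other scalings, background corrections, filters, thresholds, fits and leaving out each array.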

Additional observations from a re-analysis of the deposited data

Results flagged for a closer look

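Each group of 4 arrays of the 26 named members was searched for an array set apart from the other 3 by more than Dixon's critical ratio allows. Of the 78 groups, 12 held such an array, 5 in control, 2 in the model and 5 in BHD. Chance flags about 1 in 20 groups that were not chosen, but these members were named for their spread in control and some also for their spread or mixed detection in model or BHD, so the count is not read against it.

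In control, replicate 4 was the low array of rclstr_60015_30_10 (3.91, against 9.71 to 10.50 on the other 3) and of rclstr_44643_583_24 (5.40, against 8.56 to 8.79). Replicate 1 was the low array of rclstr_15664_2222_10 (0.79, not well above background, against 4.90 to 5.61) and of rclstr_58750_243_12 (3.04, against 6.87 to 7.16). Replicate 3 was the low array of rclstr_47198_69_16 (0.75, not well above background, against 4.52 to 5.12).

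In the model, replicate 4 stood high in rclstr_15040_2674_11 (10.90, against 10.32 to 10.35), a small difference between close values, and replicate 1 in rclstr_47198_69_16 (5.18, against 0.72 to 1.22).

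In BHD, replicate 2 was the high array of rclstr_59617_340_14 (7.28, against 0.78 to 0.84) and replicate 4 that of rclstr_29457_1620_13 (8.39, against 3.97 to 4.70). Replicate 1 was high in rclstr_7404_1849_20 (3.16, against 1.22 to 1.48). Among values not well above background, replicate 3 stood at 0.81 in rclstr_27795_387_10 (against 0.78 to 0.79) and replicate 4 at 2.19 in rclstr_33228_491_13 (against 0.74 to 0.76).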

How the results depend on the processing

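The counts that describe the members moved with the correction of background and the thresholds. With normexp and an offset of 50 the rule gave 31 members, and of the 176 members 4 kept an SD of at least 1.5 in the model and 0 in BHD, 36 had 2 levels in control and 26 over 12 arrays; the offset narrows differences at low signal by construction. The rule gave 74 members with detection on all 4 control arrays, 624 at an SD of at least 1 and 69 at 2, and 133 to 215 when each control array was left out. An SD of at least 1 was met by 60 members in the model (34.1%, beside 1.16% of detected rclstr probes). In BHD it was met by 63 (35.8%, beside 1.43%). An SD of at least 2 was met by 6 members in the model and 9 in BHD. Leaving out each array gave 21 to 24 and 18 to 28 members at an SD of at least 1.5. In control, 2 levels were met by 31 members at a gap of 80% and by 23 of those detected on all 4 arrays; over 12 arrays by 96 at 30% and 24 at 50%. The other scalings left these counts within 1.5 times.

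At an adjusted p under 0.1, limma called 281 probes and 1 member between model and control, 2646 probes between BHD and model and 8222 between BHD and control. With array weights the model and control count was 116 and the BHD and control count 7981. Between model and control, where 21 probes were called, quantile normalization gave 51, the deposited values 51, normexp 53, the trend and robust prior 56, no filter on dim probes 10, detection on all 12 arrays 35 and on at least 2 arrays 7. No filter gave 940 between BHD and model. Members called between BHD and control were 10 of 60 with detection on all 12 arrays, beside 4636 of 41374 probes. They were 5 of 95 with only those groups in the fit, beside 4040 of 44382 probes. Between BHD and model they were 2 of 88 with only those groups, beside 965 of 43743 probes. Leaving out each array gave 1 to 108, 697 to 1474 and 2396 to 5892 probes called for the 3 comparisons in that order, and 0 to 7, 0 and 6 to 47 members.

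Deviations of same-numbered arrays correlated from -0.19 to -0.04 between model and control, from -0.16 to 0.12 between BHD and control, and at -0.11, 0.24, 0.19 and 0.21 for replicates 1 to 4 between BHD and model, so not every pair was above 0.1 and the numbers were not taken as pairs. With the replicate number as a block, 12, 1020 and 3472 probes and 0, 0 and 14 members were called. Why the counts moved was not tested except where stated. Array signal near background limits all values of the dim members.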
